A study of Mus musculus with 6 samples.

Results

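The nuclear-encoded subunits of the mitochondrial respiratory chain were compared between untreated BV-2 cells and BV-2 cells given lipopolysaccharide (LPS). Members were chosen by name among rows of the array table with exactly 1 gene symbol. For complex I the symbol had to start with Nduf, then a, b, c, s or v, then a digit. For complex III it had to start with Uqcr or be Cyc1. For complex IV it had to start with Cox4 to Cox8, and for complex V with Atp5. The row of the highest mean was kept for each gene. This gave 77 of the 22180 genes with a row of their own, from 86 matching rows: 33 members of complex I, 9 of complex III, 17 of complex IV and 18 of complex V. Among them are 2 pseudogenes, Atp5c1-ps and Uqcrh-ps1, which the names admit. A further 10 matching rows carried several symbols, and 9 genes that were found only on such rows, among them Ndufb2, Uqcr10 and Cox6c, were left out. The 13 subunits encoded by mitochondrial DNA had no row of their own and were not analysed here.

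BV-2 is a mouse microglial line in which a retrovirus brought in the oncogenes raf and myc, so all 6 arrays come from dividing, transformed cells. The control group (3 arrays) was untreated, and the LPS group (3 arrays) received LPS O111:B4, the outer membrane glycolipid of Gram-negative bacteria, at 1 µg/mL, with a label of 24 h. For the control cells, the collection time is not stated in the labels. The labels leave it unsaid whether the 3 replicates of a group were grown separately, so each p-value rests on a spread between arrays that may be technical. Values are log2 signals, and levels of different genes are not compared, since each row has its own probes. In a bulk sample, fewer cells of a type and less RNA per cell cannot be told apart.

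All 10 microglial and macrophage markers examined lay above background, with an array mean of 7.73 to 8.12 in control and 7.78 to 8.29 in LPS arrays, although Aif1 (mean 3.97) and Cx3cr1 (mean 3.70) lay little above it. Background was taken as 3.08, the 95th percentile of 1443 rows for olfactory, vomeronasal and taste receptors. Of markers of other brain cells, 0 of 4 for astrocytes, 0 of 3 for oligodendrocytes and 2 of 5 for neurons lay above this level. The same held for 1 of 4 fibroblast markers, Col1a2 at 3.10, and for 1 of 4 endothelial markers, Kdr at 8.83. Of the 77 members, 68 lay above the level, and the other 9 lay at or under it and carry little information.

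The respiratory chain passes electrons from NADH and succinate to oxygen and stores the energy as a proton gradient over the inner mitochondrial membrane. Complex I takes electrons from NADH, complex III passes them from ubiquinol to cytochrome c, complex IV hands them to oxygen, and complex V, the ATP synthase, uses the gradient to make ATP. Macrophages and microglia exposed to LPS are known to shift their energy metabolism towards glycolysis, and the chain is a source of superoxide and a target of nitric oxide in these cells. Most of its subunits are encoded in the nucleus, and binding sites for NRF1, the GABP factors (ETS family) and YY1 are known features of their promoters.

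Promoter sequence is shown here because the members varied together between the arrays, as described below, and because these letters were not used to choose them. RefSeq promoters (GRCm38.p6, 250 bases before to 50 bases after the annotated start) were found for 61 of the 77 members, in 66 windows. The letters GCGCATGCGC, a full palindromic NRF1 motif that reads the same on both strands, stood in 5 of the 66 windows (7.58%) and in 319 of all 32851 promoters (0.971%). The windows belong to Atp5g2, Atp5k, Cox6a1, Ndufa11 and Uqcrc1, and in Uqcrc1 the motif lies after the start. The 4 stretches that hold it before the start are given 5′ to 3′ on the gene's strand, with the motif in capitals and 25 bases on each side: Atp5g2 at chr15:102671055-102671114 (minus strand), Atp5k at chr5:108434415-108434474 (minus), Cox6a1 at chr5:115349086-115349145 (minus) and Ndufa11 at chr17:56717677-56717736 (plus).
Atp5g2: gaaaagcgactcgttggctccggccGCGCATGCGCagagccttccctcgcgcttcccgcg
Atp5k: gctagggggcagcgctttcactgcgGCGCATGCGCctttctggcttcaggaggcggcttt
Cox6a1: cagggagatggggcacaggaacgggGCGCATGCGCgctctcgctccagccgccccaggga
Ndufa11: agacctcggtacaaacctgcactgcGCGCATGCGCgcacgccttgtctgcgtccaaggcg

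The first base of the motif lay at position -42 from the start in Atp5g2, -50 in Atp5k, -162 in Cox6a1 and -60 in Ndufa11. The YY1 motif AAGATGGC, searched on both strands like the others, stood in 13.6% of member windows and 2.75% of all promoters. The ETS motif CCGGAAGT stood in 7.58% and 3.89%, the CCAAT box (CCAAT) in 37.9% and 37.4%, and the TATA box (TATAAA) in 13.6% and 13.6%. These matches describe letters in the windows and say nothing of whether a factor bound there in these cells. Members with and without the NRF1 motif had much the same shift in the low control array described below, with median gaps of -1.13 and -0.98. Their median differences without that array were -0.34 and -0.35. For the ETS motif, found in 5 genes, these were -0.67 with and -0.33 without it, and the gaps were -0.96 and -1.03. For the YY1, CCAAT and TATA motifs the differences were -0.30, -0.36 and -0.35 with the motif. They were -0.35, -0.31 and -0.34 without it. Whether a motif goes with the shift was not tested.

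Across all 41345 rows, 80 were called higher after LPS (0.193%) and 0 lower (0%), by limma at an adjusted p under 0.05. Without adjustment, 2059 rows passed p under 0.05 as higher (4.98%) and 578 as lower (1.4%). None of the 77 members was called in either direction, and the lowest adjusted p among them was 0.405. At an unadjusted p under 0.05, 1 member was higher (Cox6a2) and 0 were lower. The LPS minus control difference had a median of 0.06 over the members, with 42 above 0 and 35 below. It ran from -0.55 (Ndufb11, close to background) to 0.89 (Cox6a2). Over all rows the median was 0.03, and over rows above background 0.11. The LPS arrays lay wholly above the control arrays in 3 members (Cox6a2, Ndufa4l2 and Atp5c1-ps) and wholly below in 2 (Cox6b2 and Atp5j2), where 7.74% and 3.48% of all rows did so. All of these but Cox6a2 lay at or under background.

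The arrays of a group did not stand equally far apart. The median level of the 68 members above background was 7.54, 6.13 and 7.36 in control replicates 1, 2 and 3, and 7.04, 7.23 and 7.12 in LPS replicates 1, 2 and 3. Control replicate 2 was thus the low array, the LPS arrays lay close together, and control replicates 1 and 3 lay above them. Control replicate 2 was the lowest of the 6 arrays in 60 of 77 members (77.9%), against 32.1% of all rows and 43.7% of rows above background. Among genes above background with 1 row each, the basis nearest to the members, the share was 54.6%, and control replicate 2 was the lowest in 56 of the 68 members above background. Its gap to the mean of the other control arrays had a median of -0.93 over the members, and ran from -2.02 (Ndufa11) to 0.70 (Cox4i2). Over all rows the same gap had a median of -0.11.

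The gap was larger over the members than over rows of a like signal level. Among rows at a log2 level of 7 to 9 in control replicates 1 and 3, the gap had a median of -0.62 over all 3381 rows and -1.27 over the 28 members. Among rows at 5 to 7 it was -0.39 over all rows and -0.86 over 18 members, and among rows at 9 to 13 it was -0.53 and -1.07 over 12 members. The standard deviation (SD) was larger in the control than in the LPS arrays for 71 of 77 members (92.2%), against 52.3% of all rows. Its median over members was 0.55 in the control group, 0.20 in the LPS group and 0.15 in the control group without replicate 2. Over rows above background the same medians were 0.32, 0.28 and 0.14. Control replicate 2 was singled out from these same values, and the SD without it rests on 2 arrays. What set control replicate 2 apart was not tested.

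**Figure D1:**
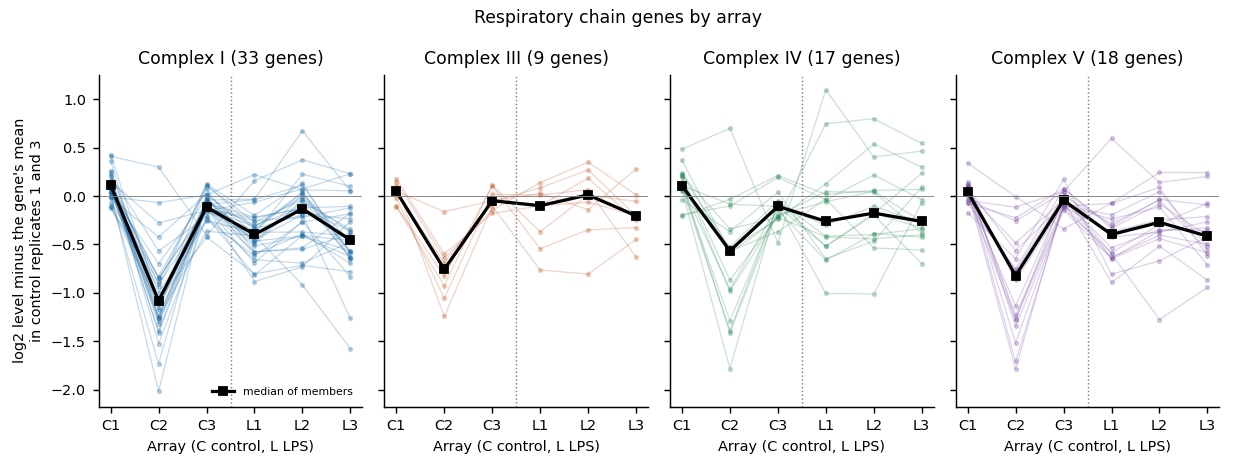
Log2 value of each of the 77 members on each of the 6 arrays (C control, L LPS), as the deviation from the gene's mean in control replicates 1 and 3, in a panel for each complex; thin lines are members and the thick line is their median. Control replicate 2 lies lowest, with complex medians of -1.08 (I), -0.76 (III), -0.57 (IV) and -0.82 (V).

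Leaving out control replicate 2 turned 28 of the 77 members from above to below 0, and turned none the other way. This direction was largely fixed in advance. Control replicate 2 was the lowest control array in 71 of the 77 members, and leaving out the lowest control array always lowers the difference. The array was also singled out from these same values. Against control replicates 1 and 3, the LPS minus control difference had a median of -0.30 over the 77 members, with 63 below 0 and 14 above. Over all rows the median was -0.01, with 21205 of 41345 below 0. Among rows at a level of 7 to 9 the medians were -0.06 over all rows and -0.33 over the members. At a level of 9 to 13 they were -0.11 and -0.32. LPS arrays lay wholly below both remaining control arrays in 37 members (48.1%), against 13.3% of all rows and 14.6% of rows above background, and wholly above in 3, against 12.3% of all rows. At an unadjusted p under 0.05, 21 members were lower (27.3%) and 1 was higher, against 3.98% and 4.98% of all rows and 6.47% and 8.87% of rows above background. Of the 10891 genes above background with 1 row each, 1861 had all LPS arrays below control replicates 1 and 3. By unadjusted p, 826 of these 10891 genes were lower and 898 higher. Still 0 members were called, and the lowest adjusted p in that limma fit was 0.265. Of all rows, 53 were then called higher (0.128%) and 14 lower (0.0339%).

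Over all members together, the LPS arrays each showed this position. Relative to the mean of control replicates 1 and 3, the median member lay at -0.35 in LPS replicate 1, -0.13 in replicate 2 and -0.35 in replicate 3, and 65, 51 and 62 of the 77 members lay below that mean. In complex III the medians were -0.10, 0.01 and -0.20, and 5, 4 and 7 of 9 members lay below. In complexes I, IV and V the median lay below 0 on each LPS array. The reference has a spread of its own: control replicate 1 lay above replicate 3 in 59 members, with a median difference of 0.17. The remaining control group has only these 2 arrays.

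**Figure D2:**
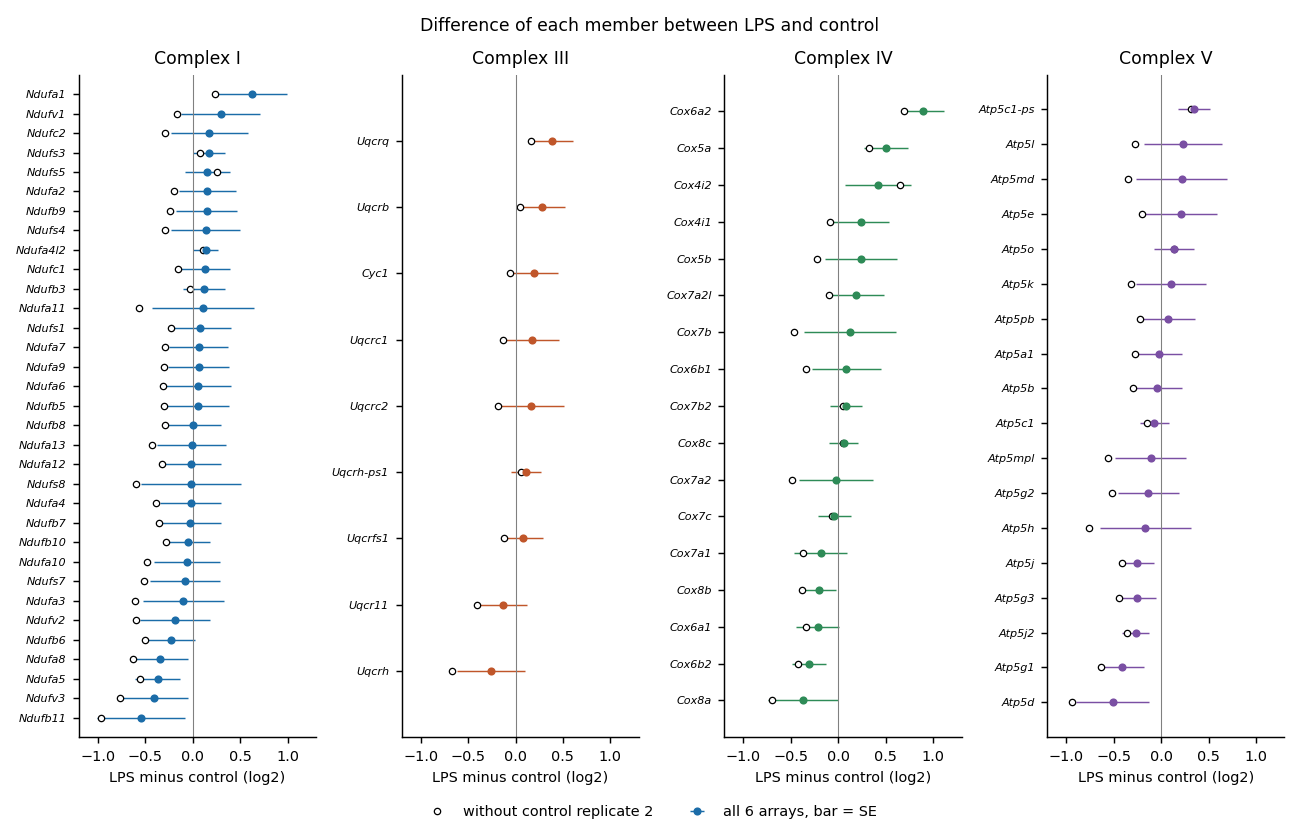
LPS minus control difference (log2) of each member, ordered within each complex, with all 6 arrays (filled points, bars are SE from limma) and without control replicate 2 (open points). The points lie on both sides of 0 with all arrays, and 63 of 77 lie below 0 without control replicate 2.

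In complex I no member was called and none passed an unadjusted p of 0.05 with all arrays. The 33 differences had a median of 0.06, with 18 above 0 and 15 below. The complex median level was 7.50, 6.08 and 7.28 in the control arrays and 6.87, 7.18 and 7.08 in the LPS arrays. The LPS arrays thus lay between control replicate 2 and the other control arrays. Without control replicate 2 the median difference was -0.31 and 29 members lay below 0. At an unadjusted p under 0.05, 10 members were then lower (30.3%), against 3.98% of all rows.

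In the NADH-oxidising head of the complex, differences had both signs. Ndufv1, which binds NADH and the flavin that takes its electrons, read 7.75, 6.27 and 7.57 in control and 7.62, 7.77 and 7.08 in LPS arrays. Its difference was 0.29 (SE 0.41), and without control replicate 2 it was -0.17, so that the sign rested on that array. Ndufs1, the largest iron-sulphur subunit, read 8.52, 7.70 and 8.76 in control and 8.44, 8.78 and 8.0 in LPS arrays. The groups overlapped, with a difference of 0.08 (SE 0.32), or -0.23 without control replicate 2. Ndufv3, a small accessory subunit of the same head, read 7.11, 5.61 and 6.26 in control and 5.88, 5.97 and 5.90 in LPS arrays. The LPS arrays of Ndufv3 lay close together and below both control replicates 1 and 3, with a difference of -0.41 (SE 0.36) and of -0.77 without control replicate 2 (unadjusted p = 0.0275, adjusted p = 0.462, limma).

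Among the iron-sulphur subunits nearer to the ubiquinone site, Ndufs7 read 8.70, 7.26 and 8.45 in control and 8.06, 8.16 and 7.95 in LPS arrays. Ndufs8 read 8.70, 6.97 and 8.71 in control and 8.37, 8.51 and 7.44 in LPS arrays. Both had differences near 0 with all arrays, -0.08 for Ndufs7 and -0.02 for Ndufs8, and of -0.52 and -0.60 without control replicate 2. Ndufv2, the iron-sulphur partner of Ndufv1, differed by -0.18 and by -0.59 without that array. Ndufs3, another core subunit, kept a difference above 0, at 0.17 and 0.08.

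The accessory subunits hold the complex together and are not part of the electron path. Ndufa11, a membrane subunit with the NRF1 motif printed above, read 7.50, 5.45 and 7.43 in control and 6.87, 7.08 and 6.77 in LPS arrays. Control replicate 2 lay 2.02 log2 units under the mean of the other control arrays, and the LPS arrays lay between. Its difference was 0.11 (SE 0.54) with all arrays and -0.56 (SE 0.16) without that array. Ndufa10 read 9.22, 7.92 and 9.14 in control and 8.72, 8.77 and 8.61 in LPS arrays, with differences of -0.06 (SE 0.35) and -0.48. Ndufb9 read 10.15, 8.92 and 9.998 in control and 9.85, 9.94 and 9.71 in LPS arrays, with differences of 0.15 (SE 0.32) and -0.24. In each of these, the 3 LPS arrays lay above control replicate 2 and below control replicates 1 and 3.

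The most positive difference in complex I belonged to Ndufa1, a small membrane subunit needed for assembly. It read 6.70, 5.49 and 6.62 in control and 6.63, 7.34 and 6.71 in LPS arrays, with a difference of 0.62 (SE 0.37, adjusted p = 0.934, limma). LPS replicate 2 was the high array, and without control replicate 2 the difference was 0.23. The most negative belonged to Ndufb11, another membrane subunit, at 4.35, 2.73 and 3.63 in control and 3.58, 3.07 and 2.42 in LPS arrays. With a mean of 3.30, Ndufb11 lay close to background. Its groups overlapped, and its difference was -0.55 (SE 0.46), or -0.97 without control replicate 2. Ndufs5 was the only member of complex I in which control replicate 2 did not lie lowest among the control arrays, at 3.91, 3.80 and 3.09. That row had a mean of 3.68, not far above background. A brighter row shared by Ndufs5 and Ndufs5-ps, not among the members, read 6.24, 5.01 and 5.66 in control, with replicate 2 lowest.

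Ndufa4, named for complex I but found in complex IV by later work, read 9.62, 8.28 and 9.11 in control and 8.99, 8.995 and 8.96 in LPS arrays. The SD was 0.68 in the control group and 0.02 in the LPS group, and the difference was -0.02 (SE 0.32), or -0.39 without control replicate 2. Counting it in complex IV left the complex medians at 0.06 (I) and 0.07 (IV). Ndufa4l2, its hypoxia-inducible paralogue, lay under background at 2.29, 2.23 and 2.31 in control and 2.52, 2.36 and 2.35 in LPS arrays. These arrays did not overlap, but the difference was 0.14 (SE 0.13) at a level where the row carries little information.

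A further relative of Ndufa4 stood outside the members. The symbol AA467197, the mouse gene for a small mitochondrial protein akin to Ndufa4, shares a row with Mir147, a microRNA gene at the same locus. That row read 2.55, 2.79 and 3.06 in control and 5.05, 5.47 and 5.57 in LPS arrays, so all control arrays lay under background and all LPS arrays well over it. The row rose by 2.57 log2 units (SE 0.21, adjusted p = 0.0113, limma), and by 2.56 without control replicate 2 (adjusted p = 0.0369). The probes do not tell the 2 genes apart, so the change belongs to the row and to neither gene alone.

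**Figure D3:**
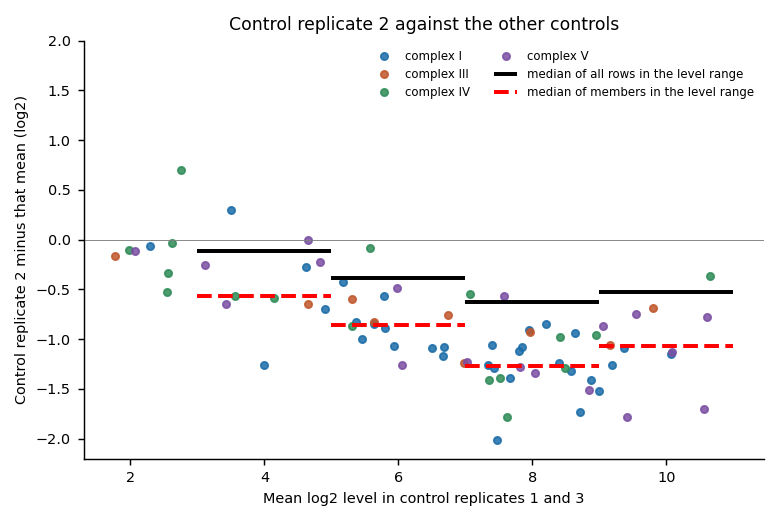
Gap of control replicate 2 to the mean of control replicates 1 and 3 (log2) for each member against that mean, coloured by complex, with bars for the median gap of all rows (black) and of the members (red, dashed) in each range of level. The red bars lie below the black ones: at a level of 7 to 9 they are at -1.27 and -0.62.

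In complex III, 7 of 9 differences lay above 0 with all arrays and 3 of 9 without control replicate 2, and none was called in either fit. The medians were 0.17 and -0.12. The complex median level was 6.77, 5.73 and 6.70 in control and 6.21, 6.17 and 6.48 in LPS arrays. Control replicate 2 was the lowest of the 6 arrays in all 9 members.

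None of the subunits that carry electrons was called. Cyc1, cytochrome c1, which passes electrons to cytochrome c, read 6.77, 5.98 and 6.70 in control and 6.63, 6.92 and 6.48 in LPS arrays. Uqcrfs1, the Rieske iron-sulphur protein, read 5.49, 4.72 and 5.13 in control and 5.21, 5.25 and 5.11 in LPS arrays. Their differences were 0.20 (SE 0.25) and 0.08 (SE 0.21), and without control replicate 2 they were -0.05 and -0.12. The LPS arrays of both genes overlapped with control replicates 1 and 3.

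Among the other subunits, Uqcrc1, which has the NRF1 motif after its start, read 7.86, 7.04 and 8.08 in control and 7.60, 7.98 and 7.91 in LPS arrays. Uqcrc1 and Uqcrc2, the core proteins on the matrix side, each differed by 0.17, with SE 0.29 and 0.34, and by -0.14 and -0.19 without control replicate 2. Uqcrb read 9.85, 9.11 and 9.75 in control and 9.88, 10.07 and 9.60 in LPS arrays, with differences of 0.28 (SE 0.24) and 0.05. Uqcrq, the member of the complex with the most positive difference, read 4.80, 4.01 and 4.50 in control and 4.79, 5.00 and 4.66 in LPS arrays, with 0.38 (SE 0.23) and 0.17. These last 2 kept a difference above 0 in both fits, within overlapping groups.

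Uqcrh, the hinge protein that helps cytochrome c1 meet cytochrome c, had the most negative difference of complex III. It read 7.08, 5.73 and 6.87 in control and 6.21, 6.17 and 6.53 in LPS arrays, so the LPS arrays lay between control replicate 2 and the others. The difference was -0.26 (SE 0.36), and -0.67 without control replicate 2 (unadjusted p = 0.0100, adjusted p = 0.327, limma). Uqcr11, a small subunit, behaved alike in sign, at -0.13 (SE 0.25) and -0.41. The pseudogene Uqcrh-ps1 lay under background on all 6 arrays, from 1.60 to 2.04.

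Complex IV held the member with the lowest p of all. Its 17 differences had a median of 0.08, with 10 above 0, and of -0.23 without control replicate 2, with 5 above 0. The complex median level was 5.69, 5.49 and 5.47 in control and 5.35, 5.40 and 5.81 in LPS arrays. The complex includes isoforms that are restricted to muscle, testis or lung, and 4 of its members lay at or under background.

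Cox6a2, the isoform of subunit VIa that is typical of heart and skeletal muscle, read 4.37, 3.55 and 3.91 in control and 4.89, 4.94 and 4.68 in LPS arrays. All LPS arrays lay above all control arrays. The difference was 0.89 (SE 0.23, 95% confidence interval 0.35 to 1.43, unadjusted p = 0.00613), which did not pass after adjustment (adjusted p = 0.405, limma), and without control replicate 2 it was 0.69 (adjusted p = 0.354). Cox6a1, the isoform found in most tissues, read 10.61, 10.28 and 10.68 in control and 10.001, 10.18 and 10.74 in LPS arrays. Its LPS replicates 1 and 2 lay below the control arrays and LPS replicate 3 above them, and the difference was -0.22 (SE 0.23). The difference between the isoforms' responses was not tested.

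Subunits IV and Va regulate the enzyme, and none of their genes was called. Cox4i1, which binds ATP in the general form of the enzyme, read 8.61, 7.44 and 8.22 in control and 8.36, 8.47 and 8.15 in LPS arrays, with a difference of 0.24 (SE 0.30) and of -0.09 without control replicate 2. Cox4i2, the lung isoform that is induced at low oxygen in many cells, read 3.24, 3.45 and 2.27 in control and 3.85, 3.16 and 3.22 in LPS arrays, close to background. Its difference was 0.42 (SE 0.35), the groups overlapped, and control replicate 3 was the low array here. Cox5a, the partner of Cox4i1, read 7.30, 6.52 and 6.83 in control and 7.19, 7.60 and 7.36 in LPS arrays. Its difference was 0.50 (SE 0.23, unadjusted p = 0.0681, adjusted p = 0.843, limma) and 0.32 without control replicate 2, with 2 LPS arrays above all controls.

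The small membrane subunits differed among themselves in the order of the arrays. Cox8a read 9.05, 7.99 and 8.85 in control and 7.95, 7.94 and 8.88 in LPS arrays, where LPS replicate 3 stood with control replicates 1 and 3, and the other LPS arrays lay just under control replicate 2. Its difference was -0.37 (SE 0.37), or -0.69 without control replicate 2. Cox7a2 read 7.51, 5.95 and 7.21 in control and 6.70, 6.97 and 6.93 in LPS arrays, with -0.02 (SE 0.39) and -0.49. Cox7a2l, a relative of Cox7a2 that joins complexes III and IV into supercomplexes, differed by 0.19 (SE 0.29) and -0.10, and Cox7a1, the muscle isoform, by -0.19 (SE 0.28) and -0.37 at a mean of 3.27. Of the 8 tissue-restricted isoforms among the members, 3 lay above background, namely Cox4i2, Cox6a2 and Cox7a1.

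**Figure D4:**
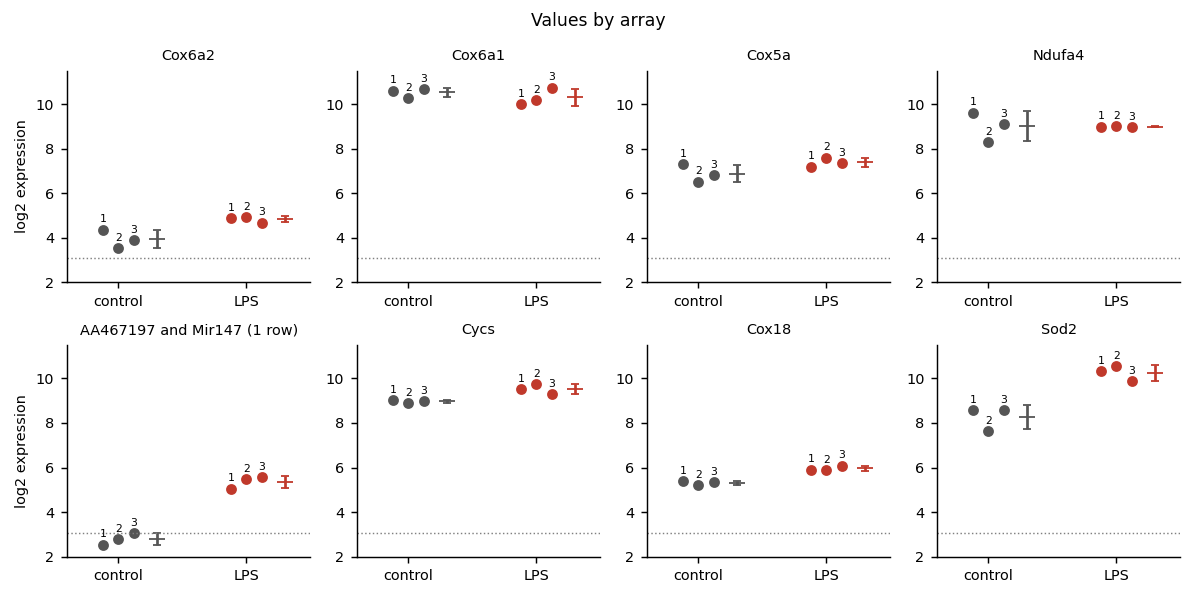
Log2 value on each of the 6 arrays for 4 members, the row shared by AA467197 and Mir147, and Cycs, Cox18 and Sod2, with numbered points for the replicates, a bar for each group mean with 1 SD (n = 3) and a dotted line at background (3.08). The LPS points lie above all control points for Cox6a2, Cycs, Cox18, Sod2 and the shared row, and overlap with them for Cox6a1, Cox5a and Ndufa4.

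Complex V was the only complex with a median difference below 0 when all arrays were used as deposited. Its 18 differences had a median of -0.05, with 7 above 0 and 11 below, and of -0.34 without control replicate 2, with 2 above 0 and 16 below. The complex median level was 7.74, 6.61 and 7.65 in control and 7.08, 7.17 and 7.06 in LPS arrays. In 12 of 18 members (66.7%) all LPS arrays lay below control replicates 1 and 3, against 13.3% of all rows. At an unadjusted p under 0.05 in that fit, 7 members were lower (38.9%), against 3.98% of all rows, with 0 called.

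In the catalytic head, the alpha and beta subunits had differences close to 0 with all arrays. Atp5a1, the alpha subunit, read 9.47, 8.80 and 9.62 in control and 9.22, 9.47 and 9.14 in LPS arrays. Atp5b, the beta subunit that makes ATP, read 10.61, 9.84 and 10.61 in control and 10.32, 10.57 and 10.05 in LPS arrays. Their differences were -0.02 (SE 0.24) and -0.04 (SE 0.26), and -0.27 and -0.30 without control replicate 2. Atp5d, the delta subunit of the central stalk, read 7.81, 6.53 and 7.80 in control and 7.21, 6.53 and 6.86 in LPS arrays. It had the most negative difference of the complex, -0.51 (SE 0.38), and -0.94 without control replicate 2 (unadjusted p = 0.00604, adjusted p = 0.272, limma).

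The ring of c subunits, through which protons pass, is made of 1 mature protein from 3 genes. Atp5g1 read 3.25, 2.77 and 3.59 in control and 2.61, 2.75 and 3.00 in LPS arrays, near background. Atp5g2, whose NRF1 motif is printed above, read 10.11, 8.95 and 10.06 in control and 9.45, 9.68 and 9.59 in LPS arrays. Atp5g3 read 7.66, 7.02 and 7.50 in control and 6.94, 7.22 and 7.25 in LPS arrays. In all 3 genes the LPS arrays lay below control replicates 1 and 3. The differences were -0.42 (SE 0.24), -0.14 (SE 0.32) and -0.26 (SE 0.21) with all arrays, and -0.63, -0.51 and -0.44 without control replicate 2, none of them called.

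In the outer stalk and the rest of the membrane part, differences had both signs with all arrays. Atp5h, subunit d of the outer stalk, read 9.46, 7.63 and 9.36 in control and 8.52, 8.89 and 8.54 in LPS arrays. Its difference was -0.16 (SE 0.48), and without control replicate 2 it was -0.76, with the lowest adjusted p of any member in that fit (0.265, limma). A second, dimmer row of Atp5h read 3.41, 4.15 and 3.54 in control and 3.39, 3.27 and 3.99 in LPS arrays. Control replicate 2 was the highest array there, and the differences were -0.15 and, without that array, 0.07. The fall in that fit was thus seen in the row in use only. Atp5k, the e subunit with an NRF1 motif, read 6.18, 4.79 and 5.92 in control and 5.47, 5.75 and 5.98 in LPS arrays, with 0.10 (SE 0.37) and -0.32. Atp5l, the g subunit, and Atp5md, a small membrane subunit, had the most positive differences of the complex above background, 0.23 (SE 0.41) and 0.22 (SE 0.48), and both turned to -0.28 and -0.35 without control replicate 2. Atp5o, the protein that links the outer stalk to the head, was the only member of the complex above background with a positive value in both fits, 0.14 and 0.14.

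For 9 members a second row measured the same gene with other probes, and 6 of these rows lay above background. Their difference had the same sign as the row in use in 5 of the 6. The exception was Atp5d, whose second row differed by 0.08 with all arrays and by -0.30 without control replicate 2. The row of Atp5d in use gave -0.51 and -0.94. In 4 of the 6 second rows all LPS arrays lay below control replicates 1 and 3, as did 14.6% of rows above background. The second row of Atp5g2 read 9.43, 8.36 and 9.41 in control and 8.80, 8.96 and 8.85 in LPS arrays, the same order of arrays as the row in use. The second row of Ndufa12 read 5.10, 4.90 and 4.96 in control and 4.70, 4.68 and 4.56 in LPS arrays, where all LPS arrays lay below all control arrays. The second row of Ndufa11 lay under background at a mean of 2.84, and its lowest control array was replicate 1 at 2.72, not replicate 2. All its LPS arrays lay below all control arrays. Its difference was -0.79, opposite in sign to the 0.11 of the row in use. Without control replicate 2 these were -0.70 and -0.56.

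Genes that work beside the members were read from lists. Of the 4 subunits of complex II, succinate dehydrogenase, 0 were called, with a median of 0.09, or -0.20 without control replicate 2. Sdha, the flavoprotein, differed by -0.06 (SE 0.23), Sdhb, the iron-sulphur subunit, by 0.28 (SE 0.23), and Sdhc, a membrane anchor, by 0.23 (SE 0.29). Without control replicate 2 these were -0.30, 0.05 and -0.10, so that Sdhc changed sign. Sdhd, the other anchor, read 8.58, 7.13 and 8.39 in control and 7.76, 7.75 and 7.55 in LPS arrays. Its difference was -0.35 (SE 0.37), and -0.80 without control replicate 2 (adjusted p = 0.198, limma), with all LPS arrays below control replicates 1 and 3.

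Cycs is cytochrome c itself, which carries electrons from complex III to complex IV. It read 9.03, 8.89 and 8.98 in control and 9.52, 9.76 and 9.29 in LPS arrays. Control replicate 2 lay close to the other control arrays here, and all LPS arrays lay above all control arrays. The difference was 0.56 (SE 0.16, unadjusted p = 0.0115), with an adjusted p of 0.503 in limma, and 0.52 without control replicate 2. Atpif1, the inhibitor of ATP synthase run in reverse, read 9.79, 8.74 and 9.60 in control and 9.01, 9.04 and 9.11 in LPS arrays, with -0.32 (SE 0.28) and -0.64 without control replicate 2.

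Assembly factors, which insert metals, haem and subunits, were not called in any of the 4 lists. Of 15 factors for complex I, 14 had a difference above 0, where 55.8% of all rows and 64.2% of rows above background did. Their median of 0.21 came to -0.01 without control replicate 2, and 1 passed an unadjusted p of 0.05 with all arrays (Ndufaf3, 0.63). Of 21 factors for complex IV, 11 lay above 0, with a median of 0.07, or -0.20 without control replicate 2, and 3 passed an unadjusted p of 0.05 in the higher direction. These were Cox10, which makes haem O, at 0.40, Cox17, a copper carrier, at 0.63, and Cox18, which inserts a part of a mitochondrially encoded subunit into the membrane, at 0.65 (SE 0.14, adjusted p = 0.28, limma). Without control replicate 2, 5 complex IV factors were lower at an unadjusted p under 0.05, Cox20, Cmc1, Cmc2, Higd1a and Higd2a, from -0.69 to -0.93, and 1 was higher. By the same measure, 3.98% of all rows were lower and 4.98% higher in that fit. With all arrays, 4.98% were higher. The 6 factors for complex III and the 3 for complex V had medians of 0.07 and 0.01.

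Of 14 listed regulators of mitochondrial gene expression, 0 were called, 10 lay above 0, and the median was 0.12, or 0.02 without control replicate 2. Ppargc1a, the coactivator PGC-1 alpha, lay under background on all 6 arrays, from 1.60 to 1.84. Ppargc1b, its relative, differed by 0.33 (SE 0.20), Tfam, which packs and transcribes mitochondrial DNA, by 0.06 (SE 0.24), and Nrf1, the factor whose motif was searched above, by -0.04 (SE 0.20). Gabpb1, a subunit of the GABP factor, and Tfb1m, a mitochondrial rRNA methyltransferase, passed an unadjusted p of 0.05, at 0.56 and 0.42, with adjusted p of 0.583 and 0.765 in limma. The gap of control replicate 2 had a median of -0.18 over these regulators, against -0.93 over the chain members. In other lists it was nearer to that of the members: -0.86 over complex II and -0.95 over mitochondrial superoxide defence. Over the assembly factors it was -0.43 (complex I), -0.61 (III), -0.73 (IV) and -0.39 (V). It was -0.42 over uncoupling proteins and translocators, and -0.11 over the list that holds Cycs and Atpif1. The lists were not matched for signal level.

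Sod2, the manganese superoxide dismutase that removes superoxide made by the chain, read 8.57, 7.62 and 8.57 in control and 10.31, 10.55 and 9.87 in LPS arrays. All LPS arrays lay over 1 log2 unit above all control arrays, and the difference was 1.99 (SE 0.31, 95% confidence interval 1.24 to 2.73), with an adjusted p of 0.124 in limma. It was 1.67 without control replicate 2 (adjusted p = 0.0867) and passed under 4 of the settings run, over all of which the adjusted p ran from 0.0249 (without control replicate 2 and LPS replicate 3) to 0.506 (without LPS replicate 2). The other 4 genes for defence against mitochondrial peroxide and superoxide with a row of their own (Prdx3, Txn2, Txnrd2 and Gpx4) differed by -0.19 to 0.28. The adenine nucleotide translocators Slc25a4 and Slc25a5 and the phosphate carrier Slc25a3, which feed ATP synthase, differed by -0.04, 0.04 and 0.02. Of the uncoupling proteins, Ucp1 and Ucp3 lay under background, and Ucp2 had no row of its own.

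Quantile and cyclic loess normalization moved the members in the same direction as leaving out control replicate 2, by less. The medians of complexes I, III, IV and V were -0.11, 0.01, -0.05 and -0.18 after cyclic loess normalization, and -0.12, -0.02, -0.05 and -0.21 after quantile normalization, and in each 4 members were lower and 1 was higher at an unadjusted p under 0.05. Of all rows, 2.86% were lower and 4.08% higher by that measure after cyclic loess, and 3.12% and 3.66% after quantile normalization, while 0.179% and 0.152% were called higher and 0% lower. With cyclic loess and without control replicate 2 together, a combination added once the values were known, the medians were -0.33, -0.12, -0.22 and -0.29, and 21 members were lower and 1 was higher at an unadjusted p under 0.05, against 4.38% and 5.57% of all rows, of which 0.0629% were called lower and 0.21% higher. Leaving out another control array moved the medians the other way: to 0.26, 0.27, 0.29 and 0.13 without control replicate 1, and to 0.15, 0.31, 0.17 and 0.07 without control replicate 3. Median centring left the medians at 0.05, 0.16, 0.07 and -0.06, and array weights with all 6 arrays gave -0.11, 0.03, -0.11 and -0.14. The sign of the complex medians thus varied with the control arrays used, their weights and the kind of normalization. No member was called under any of the settings run.

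**Figure D5:**
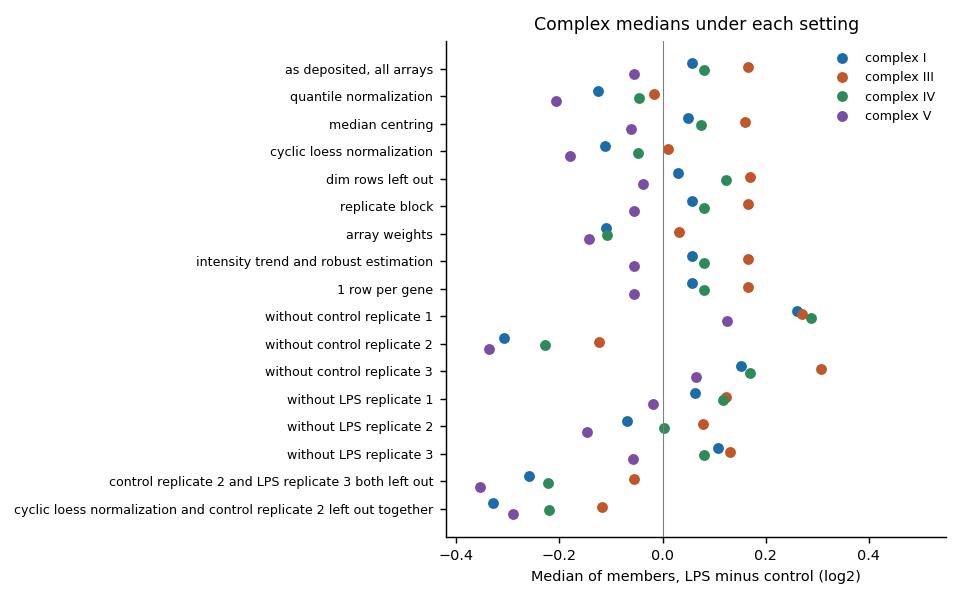
Median LPS minus control difference (log2) of the members of each complex under each setting, from all 6 arrays as deposited to other normalizations and to fits with arrays left out. Medians lie from -0.35 (complex V, without control replicate 2 and LPS replicate 3) to 0.31 (complex III, without control replicate 3).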

How the data were processed

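Expression was measured on Affymetrix whole-transcript arrays. The authors deposited log2 expression values per row (transcript cluster), for which the submitters' processing notes name Affymetrix Expression Console. Its version, background correction, normalization and genome build are not given in the sources used here, so how these steps bear on dim rows or on 1 array could not be checked. Names came from a platform annotation table. The 3 LPS arrays were compared with the 3 control arrays by linear models with empirical Bayes moderation (R 4.3.3, limma 3.58.1) on all 41345 rows as deposited. Benjamini-Hochberg adjustment ran over all of these, and an adjusted p under 0.05 was called. Errors of differences are moderated standard errors (SE), and the number of arrays limits the precision. The fit was tested on simulated data with independent noise for each row and array. A shift shared by many rows of an array, as seen in control replicate 2, was not simulated.

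The members and gene lists were chosen with earlier results of these data known. Genes named by rule were, for each complex, the 3 members of highest mean and those above background with the 2 largest differences in each direction, plus a set list of subunits and regulators. Other genes named (Ndufa11, Atp5h, Cycs and others) were chosen after their values were seen. Alternatives covered normalization, dim rows, array weights, an intensity trend, a replicate block, other row choices and leaving arrays out. Replicate numbers were not taken to pair the arrays. Promoters came from RefSeq (GRCm38.p6) and were searched with Python 3.11.15.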

Additional observations from a re-analysis of the deposited data

How the results depend on the processing

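No member was called under any alternative run, and with 3 arrays per group effects of the size seen here can be missed. The 80 rows called among all rows became 132 with array weights, 219 without control replicate 2 and LPS replicate 3, and between 15 and 82 with 1 array left out. The complex IV median of 0.08 lay between -0.23 (without control replicate 2) and 0.29 (without control replicate 1) with 1 array left out, at -0.22 without control replicate 2 and LPS replicate 3, and at -0.22 with cyclic loess and without control replicate 2, a combination added once the values were known. The medians of complexes I, III and V moved by less than 1 SD between arrays of a group, though their signs changed, and the cause was not tested. This SD of the complex median level was 0.55 (I), 0.43 (III), 0.20 (IV) and 0.45 (V). It includes control replicate 2, so it cannot show that the medians were stable to leaving out that array. Complex I moved from 0.06 to -0.31 without it, and complex IV stands apart through its smaller SD.

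With the replicate number as a block, 7 rows were called. Same-numbered arrays did not deviate together (correlations of deviations from the group means 0.15, -0.31 and -0.31), so the numbers were not taken to pair the arrays, and no member was called with the block either.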
